A study of Mus musculus with 5 samples.

Results

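Imprinted genes are a set of mammalian genes of which the copy from 1 parent is silenced, and 44 mouse genes of this kind, chosen by symbol and grouped into 19 imprinted domains by textbook location, were followed through RNA sequencing of pluripotent cells. All 44 were found among the 23951 genes of the deposited table. The 5 libraries came from 5 groups of 1 library each. The E14 line of mouse embryonic stem cells (ESCs), grown on gelatin, gave 2 of them: 1 received serum together with leukaemia inhibitory factor (LIF), and in the other a basal medium held LIF plus 10 ng/ml of BMP-4. The other groups were epiblast stem cells that had been derived from ESCs (ESD-EpiSCs, here EpiSCs), grown on serum-coated plates in N2B27 to which Activin A and FGF2 were added. One EpiSC group was untreated, another had BMP-4 (10 ng/ml) during 1.5 h, and the last had the same dose during 24 h. ESCs stand for the naive state of pluripotency and EpiSCs for the primed state, which resembles the epiblast after implantation. The labels do not say how many lines or clones the EpiSCs came from.

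Imprinted genes lie in clusters, and each cluster is governed by a stretch of DNA that carries methylation on the maternal or the paternal copy only. The mark is set in the germ line, and after fertilisation ZFP57 with TRIM28 and the methyltransferase DNMT1 hold it in place while most other methylation is erased and rebuilt. Many of the genes act on growth: paternally expressed genes such as Igf2 and Peg3 and maternally expressed ones such as Igf2r, Cdkn1c and Grb10 are known from the placenta and the embryo. Pluripotent cell lines are known to gain or lose these marks in culture. The values here are total RNA of both gene copies, so neither the active copy nor methylation was measured.

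Values are FPKM (fragments per kilobase of transcript, scaled to the mapped fragments of the library), a level per transcript length, and ranges in parentheses are the intervals deposited with them. "Higher" and "lower" mean at least 2-fold apart in FPKM + 1, among genes whose mean across libraries reached 1 FPKM. Every fold and gap given below is likewise a ratio of FPKM + 1. For low genes it is smaller than the ratio of the printed FPKM values. With 1 library a group there is no replicate spread and no test, so each difference describes these libraries. Where the values of the cell types are said not to overlap, all EpiSC values lay on 1 side of both ESC values. The share of all genes that do so was not counted, so without a 2-fold gap this is description only. In bulk RNA, fewer cells that express a gene and less RNA per cell cannot be told apart. Depth, estimated from the steps between low values, was about 8440000 to 13300000 reads, at which 1 read in a transcript of 2000 nt is worth 0.0592 FPKM in the shallowest library and 0.0375 in the deepest, the 24 h library. Markers went the way of the cell type labels. All 8 of 8 naive markers were lower in every EpiSC library than in both ESC libraries, beside 6.62% of all genes. Of 8 primed markers, 6 were higher, beside 7.21%. Without markers under 1 FPKM in every library of 1 cell type, these were 2 of 2 and 4 of 6, beside 4.10% and 4.67% of genes filtered alike.

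A mean of 1 FPKM or more was reached by 28 of the 44 genes. When all 3 EpiSC libraries were set against both ESC libraries, 9 of these 28 were higher in EpiSCs: Igf2, Peg3, Snrpn, Snurf, Ndn, Peg12, Asb4, Cdkn1c and Gnas. That is 32.1%, beside 7.21% of all 11005 genes that passed the same mean. Only Peg10 and Mest of the 28 were lower in every EpiSC library, 7.14% beside 6.62% of all genes, a share near the background. The mean favours such genes, since Peg12, Peg10, Asb4 and Mest passed it through 1 cell type while staying under 1 FPKM in every library of the other. Without such genes, 7 of 24 (29.2%) were higher and 0 lower, beside 4.67% and 4.10% of the 9996 genes that reach 1 FPKM in a library of each cell type. Snrpn and Snurf come from 1 transcript, and counted as 1 gene they make 8 of 27 higher (29.6%). Over all 44 genes with no minimum, 10 were higher, the tenth being Magel2, and 2 lower, 22.7% and 4.55% beside 3.40% and 3.31% of all genes.

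By parental copy, 12 of the 24 genes listed as paternally expressed passed the mean, of which 6 (50.0%) were higher in every EpiSC library and 2 (16.7%) lower, beside 7.21% and 6.62% of all genes. Of 19 listed as maternally expressed, 15 passed, of which 2 were higher (Asb4 and Cdkn1c, 13.3%) and 0 lower. Snrpn and Snurf were then taken as 1 gene, and those that passed through 1 cell type (Peg12, Peg10, Mest and Asb4) were left out. Of the rest, 4 of 8 paternally (50.0%) and 1 of 14 maternally expressed genes (7.14%) were higher and 0 lower. Among the 9996 genes filtered alike, 4.67% were higher and 4.10% lower. The parental copy is the listed one and was not measured in these cells. Gnas, mostly expressed from both copies, was the remaining higher gene. Peg10 and Mest, the lower pair, are both paternally expressed, but so are Snrpn, Peg3, Ndn and Peg12, which were higher.

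**Figure D1:**
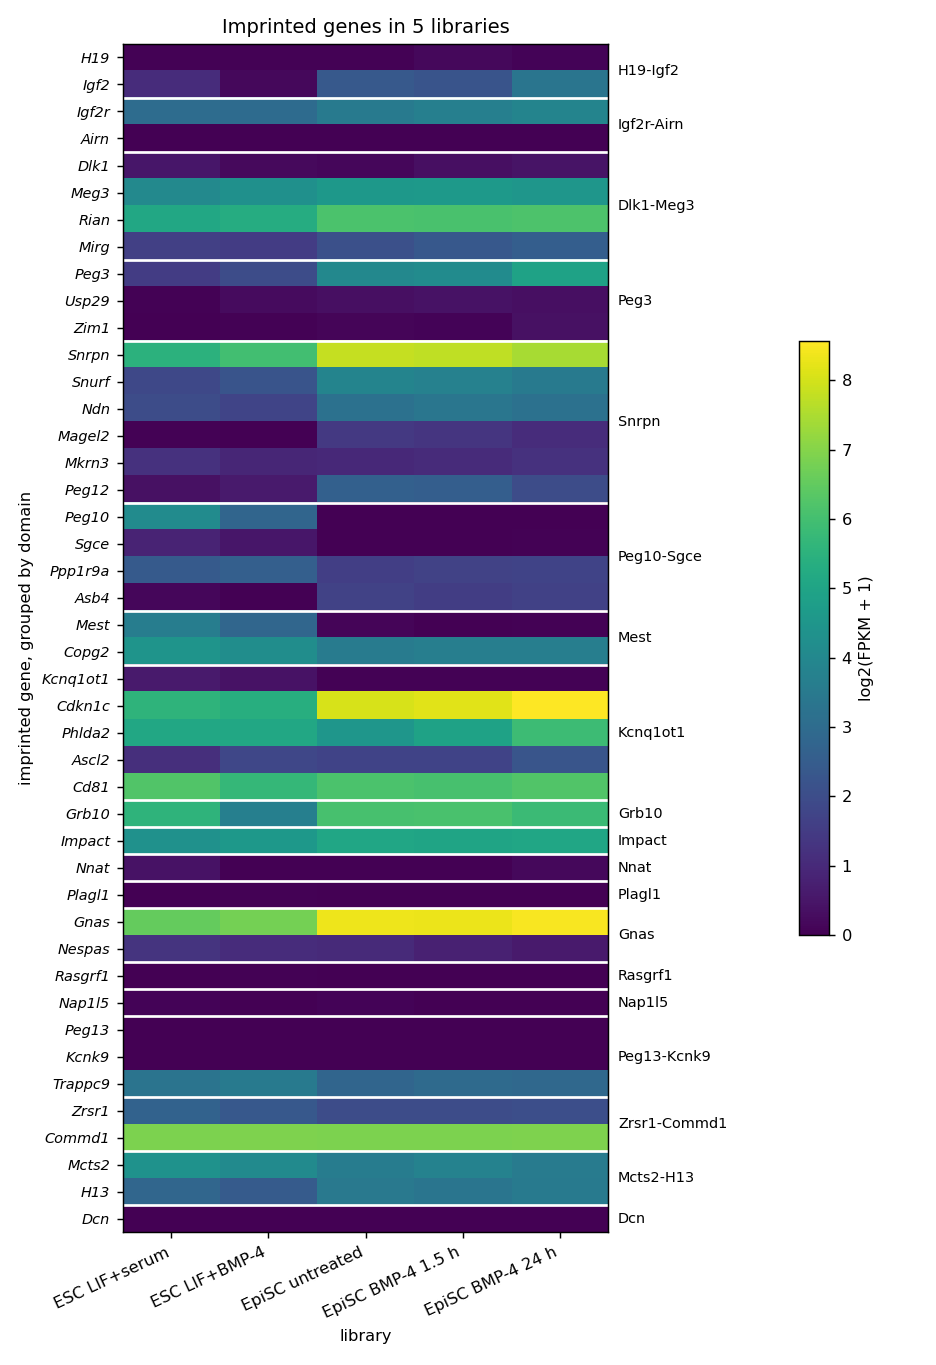
Level of the 44 imprinted genes in the 5 libraries as log2(FPKM + 1) (colour), with genes in rows grouped by domain (names at right) and libraries in columns. Peg10 and Mest are dark in the EpiSC columns, while Snrpn, Cdkn1c and Gnas are brightest there.

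The deepest contrast lay on chromosome 6. Peg10 (mm9 chromosome 6, 4697306 to 4710516), a gene derived from a retrotransposon and required in the placenta, stood at 16.6 FPKM (7.57 to 25.6) in ESCs in LIF and serum and at 5.92 (1.94 to 9.9) in ESCs in LIF and BMP-4. It was listed at 0 in all 3 EpiSC libraries. A listed 0 can be a failed estimate, so no fold is given. Sgce, the epsilon-sarcoglycan gene that shares its start region with Peg10 and is transcribed away from it, stood at 0.803 and 0.417 FPKM in the ESC libraries, was listed at 0 in untreated EpiSCs and after 1.5 h, and stood at 0.0464 after 24 h. Sgce was thus low throughout, yet both genes of this paternally expressed pair had their highest values in ESCs with serum.

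Maternally expressed neighbours in the same domain went other ways. Ppp1r9a, which encodes the actin-binding protein neurabin, stood at 4.43 and 5.09 FPKM in ESCs and at 2.04, 2.21 and 2.29 in untreated, 1.5 h and 24 h EpiSCs. The ESC and EpiSC values of Ppp1r9a did not overlap, and the gap between them was 1.65-fold in FPKM + 1. Asb4, an ankyrin repeat and SOCS box gene of vascular and placental development, stood at 0.106 FPKM in ESCs with serum, was listed at 0 in ESCs with BMP-4, and stood at 2.2, 1.94 and 2.16 in the EpiSC libraries. Asb4 was therefore near 0 in ESCs and low but present in all EpiSC libraries, with deposited intervals that overlap those of ESCs with serum.

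**Figure D2:**
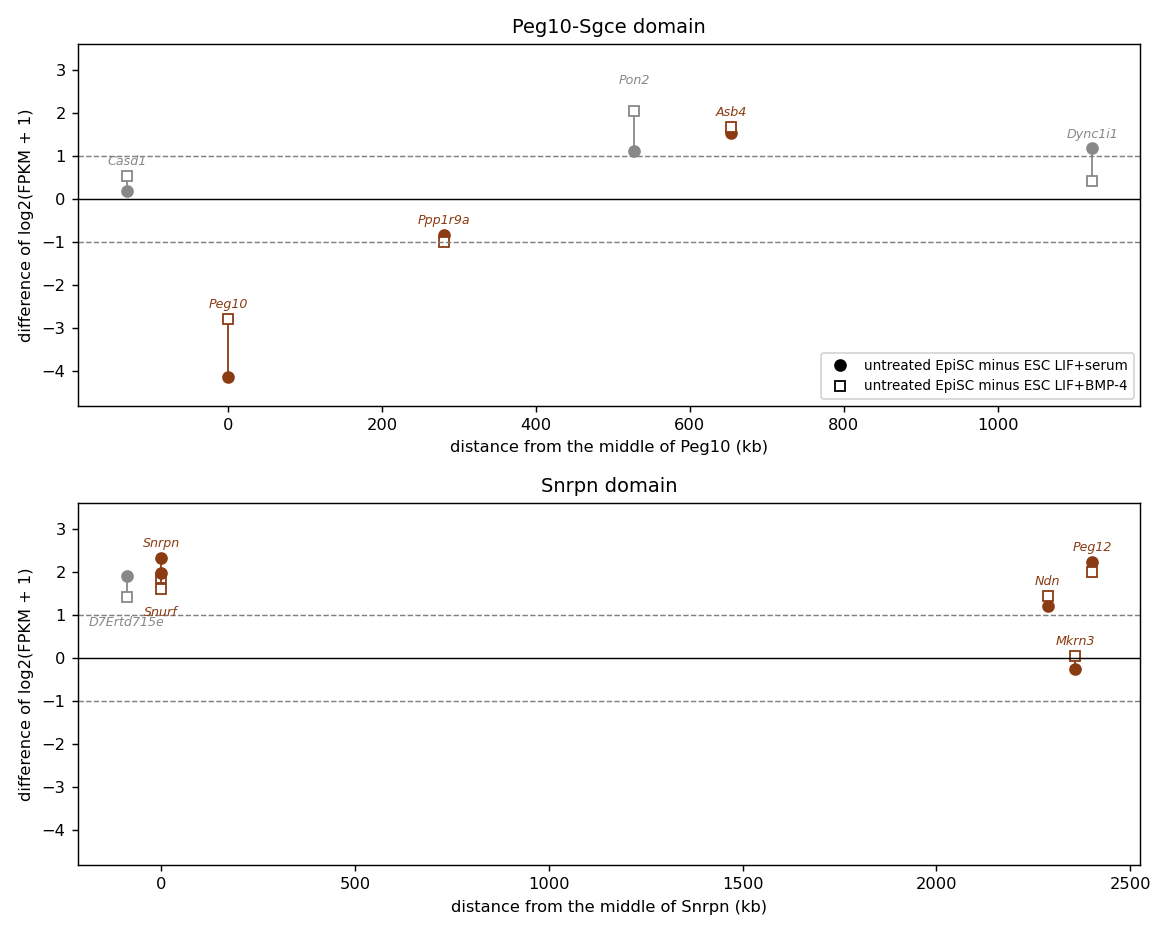
Difference of log2(FPKM + 1) between untreated EpiSCs and ESCs in LIF and serum (filled circles) or ESCs in LIF and BMP-4 (open squares) along the Peg10-Sgce and Snrpn domains, by distance in kb from the middle of Peg10 or Snrpn, for imprinted genes (brown) and other genes within 500 kb (grey) whose mean reached 1 FPKM. Peg10 and Ppp1r9a lie below 0 and Asb4 above it, while Snrpn, Snurf, Ndn and Peg12 lie above 1 and Mkrn3 lies near 0; Peg10 was listed at 0 in EpiSCs, so its points depend on the added 1.

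Mest (Peg1), a hydrolase gene of the mesoderm, lies further along chromosome 6 in a span that the file merges with Copg2 (30683506 to 30846794 in mm9). It stood at 11.4 FPKM (0 to 23.9) in ESCs with serum and 6.07 (0 to 14.4) in ESCs with BMP-4. In EpiSCs it stood at 0.0862 before treatment, was listed at 0 after 1.5 h and stood at 0.0317 after 24 h. The values did not overlap between cell types, although the deposited intervals are so wide that they do. Copg2, a coatomer subunit gene, stood at 20.5 and 17.4 FPKM in ESCs and 10.9, 11.6 and 11.6 in EpiSCs. Mest was thus 55.7% and 34.9% of the Copg2 level in the ESC libraries and at most 0.793% of it in EpiSCs. Because the file joins the pair into 1 locus, the division of reads between them rests on the authors' estimation.

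The promoter of Mest is shown because it is the maternally methylated region of its domain and holds the 6-letter motif of ZFP57 (TGCCGC, searched on both strands) at 2 places. These 250 bases before the start (GRCm38.p6, chr6:30737803-30738052, plus strand, RefSeq) hold 14 CpG pairs, and capitals mark the motif, which here reads GCGGCA on the printed strand at bases 6 and 181.
Mest: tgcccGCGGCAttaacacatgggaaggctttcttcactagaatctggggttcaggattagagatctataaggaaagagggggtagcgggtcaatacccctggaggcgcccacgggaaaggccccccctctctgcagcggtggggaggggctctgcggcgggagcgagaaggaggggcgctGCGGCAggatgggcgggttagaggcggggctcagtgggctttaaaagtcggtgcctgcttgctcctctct
RefSeq promoters were found for 34 of the 44 genes, with 50 windows of 250 bases before to 50 after a start. TGCCGC occurred in 28.0% of these windows (14 of 50) and in 11.6% of all 32851 windows of that length. Snrpn and Snurf share 1 window and Mest has overlapping windows, so the 50 are 49 distinct windows, 13 of them with the motif (26.5%), or 46 stretches once overlapping windows are joined, 12 with the motif (26.1%). Windows of the imprinted genes held a median of 14.5 CpG pairs against 7 over all windows, and the motif itself contains a CpG. The motif of YY1 (GCCATNTT, both strands) occurred in 1 of the 50, that of Mkrn3, and in 6.05% of all windows. A match is only a run of letters and says nothing of binding.

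The Snrpn domain on chromosome 7, the mouse counterpart of the Prader-Willi region, had 5 genes that passed the mean. Of these, 4 were higher in EpiSCs, or 3 of 4 when Snrpn and Snurf are counted as 1, beside 7.21% of all genes. Peg12 passed the mean through EpiSCs only, and without it the count was 2 of 3, beside 4.67% of the genes filtered alike. Snrpn (mm9 chromosome 7, 67127387 to 67285105), which encodes a protein of the spliceosome, stood at 44.6 FPKM (18.4 to 70.8) in ESCs with serum, 62.0 (27.5 to 96.6) in ESCs with BMP-4, 227 (127 to 326) in untreated EpiSCs, 214 after 1.5 h and 174 after 24 h. Every EpiSC value lay above both ESC values, and untreated EpiSCs were 4.99-fold above serum ESCs and 3.61-fold above BMP-4 ESCs, both with intervals apart. Snurf, an upstream reading frame on the same transcript, stood at 2.65, 3.73, 13.4, 12.7 and 10.3 FPKM in that order. It was between 5.92% and 6.01% of Snrpn in all 5 libraries, so the pair counts as 1 measurement.

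The start that Snurf shares with Snrpn is shown because a TGCCGC lies across it. Snrpn has other annotated starts farther upstream, whose windows hold no match, and its row is not split by start. The stretch has 260 bases (GRCm38.p6, chr7:60005190-60005449, minus strand, RefSeq), 4 CpG pairs and 1 match, again as GCGGCA, at base 249 (capitals).
Snrpn and Snurf: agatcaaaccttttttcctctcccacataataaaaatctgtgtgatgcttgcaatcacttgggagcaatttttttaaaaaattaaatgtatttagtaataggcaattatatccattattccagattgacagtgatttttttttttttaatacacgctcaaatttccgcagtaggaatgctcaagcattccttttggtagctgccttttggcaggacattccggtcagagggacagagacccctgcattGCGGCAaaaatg
Compared with the Mest promoter this one is poor in CpG.

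Farther along the domain lie genes without introns. Ndn, which encodes the MAGE protein necdin, stood at 2.93 and 2.36 FPKM in ESCs and 8.14, 9.27 and 8.14 in the EpiSC libraries. Peg12, a relative of the Wnt regulator Frat, stood at 0.312 and 0.553 in ESCs and 5.22, 4.94 and 2.98 in EpiSCs. Magel2, another MAGE gene, was under the mean, at 0.0244 FPKM in serum ESCs and 0 as listed in BMP-4 ESCs, and at 1.67, 1.49 and 1.13 in EpiSCs. For these 3 genes all EpiSC values lay above all ESC values, but the intervals of untreated EpiSCs overlapped those of ESCs. Mkrn3, a ubiquitin ligase gene that lies between Magel2 and Peg12, differed from them: it stood at 1.35 and 0.884 FPKM in ESCs and 0.964, 1.08 and 1.36 in EpiSCs, and the ranges overlapped. In these values, neighbouring genes of this paternally expressed cluster did not share 1 pattern. The intervals of Mkrn3 are wide, however: all start at 0, and they reach 2.09 to 3.21 FPKM.

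Peg3 (mm9 chromosome 7, 6658671 to 6683130), a zinc finger gene of growth and maternal behaviour, stood at 1.88 FPKM (0.143 to 3.61) in serum ESCs and 3.00 (0.5 to 5.49) in BMP-4 ESCs. In EpiSCs it stood at 15.1 (6.19 to 23.9) before treatment, 16.4 after 1.5 h and 29.4 (14.1 to 44.7) after 24 h. In FPKM + 1, untreated EpiSCs were 5.58-fold above serum ESCs and 4.02-fold above BMP-4 ESCs, with intervals apart in both. An antisense row inside the gene, Peg3os, which was picked because it overlaps, followed it at 3.47, 6.77, 33.4, 29.9 and 63.4 FPKM. The libraries were directional, but the sources used here do not say whether the counting used strand, so reads of Peg3 and Peg3os may not be separated.

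Usp29, a ubiquitin protease gene, starts beside Peg3 on the other strand and is also paternally expressed, yet it stood at only 0.0448 and 0.185 FPKM in ESCs and 0.271, 0.323 and 0.285 in EpiSCs. The 163 bases between the 2 annotated starts (GRCm38.p6, chr7:6730420-6730582, plus strand, RefSeq) are shown because 1 short stretch serves both genes. Capitals mark its 5 CpG pairs.
Peg3-Usp29: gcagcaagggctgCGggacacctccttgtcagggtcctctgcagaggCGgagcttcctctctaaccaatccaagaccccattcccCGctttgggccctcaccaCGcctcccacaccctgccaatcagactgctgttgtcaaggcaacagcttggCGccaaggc
The third gene of the domain, the maternally expressed Zim1, lay between 0 as listed and 0.315 FPKM.

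Cdkn1c (mm9 chromosome 7, 150644244 to 150646955) encodes the cell cycle inhibitor p57 and is expressed from the maternal copy. It stood at 46.5 FPKM (18.5 to 74.4) and 40.2 (16.4 to 64.1) in serum and BMP-4 ESCs, and at 263 (148 to 378) in untreated EpiSCs, 291 (170 to 412) after 1.5 h and 379 (225 to 532) after 24 h. The lowest EpiSC value was 5.56-fold above the highest ESC value, the widest such gap among the higher genes, and the intervals of untreated EpiSCs were apart from both ESC intervals. Kcnq1ot1, the paternal antisense RNA that silences the genes of this domain on the paternal copy, was at a low level, with 0.52 and 0.331 FPKM in ESCs and 0.0451, 0.0333 and 0.0407 in EpiSCs. Its mean was under 1 FPKM, and it is a very long RNA.

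The other maternally expressed genes of the Kcnq1ot1 domain did not follow Cdkn1c. Phlda2, which limits placental growth, stood at 33.9 FPKM in both ESC libraries and 21.5, 29.9 and 57.8 in EpiSCs. Ascl2, a transcription factor of the placenta, stood at 1.24 and 2.5 in ESCs and 2.28, 2.34 and 3.74 in EpiSCs. Cd81, a tetraspanin gene, stood at 75.0 and 51.6 in ESCs and 69.1, 65.8 and 74.2 in EpiSCs. For these 3 genes the ranges of the cell types overlapped.

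**Figure D3:**
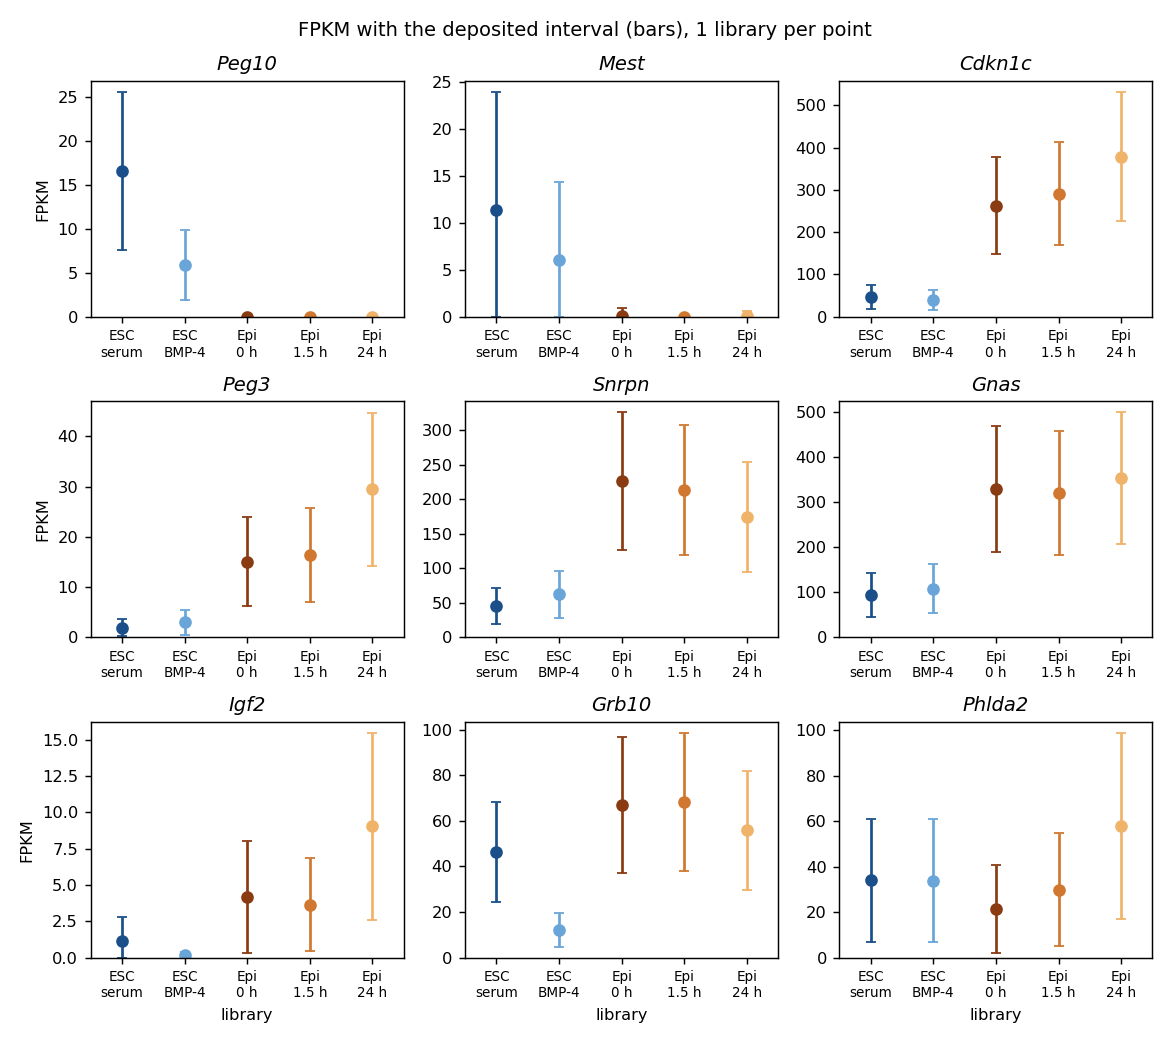
FPKM of 9 imprinted genes in each library (points), with the interval deposited for each value (bars); the axes start at 0 and differ between genes. Cdkn1c, Peg3, Snrpn and Gnas lie higher in all 3 EpiSC libraries than in both ESC libraries, Peg10 and Mest lie at or near 0 there, and Grb10 is lowest in ESCs with BMP-4.

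Gnas encodes the stimulatory G protein subunit that links receptors to cyclic AMP, and its complex locus (mm9 chromosome 2, 174106738 to 174172243) also gives imprinted transcripts from other starts. It stood at 92.9 FPKM (43.7 to 142) and 108 (53.4 to 162) in ESCs and at 328 (188 to 468), 319 and 354 in EpiSCs. The EpiSC values all lay above the ESC values, and untreated EpiSCs were 3.50-fold above serum ESCs and 3.03-fold above BMP-4 ESCs with intervals apart. The gene row sums all starts, so the imprinted and the unimprinted transcripts are not separated. Nespas, the antisense RNA of the locus, stood at 1.44 and 1.11 FPKM in ESCs and 1.01, 0.742 and 0.542 in EpiSCs, with intervals that all reach 0.

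Genes of the insulin-like growth factor axis lie in 3 domains. Igf2 (mm9 chromosome 7, 149836673 to 149856261), the paternally expressed growth factor, stood at 1.12 FPKM (0 to 2.77) in serum ESCs, 0.148 (0 to 0.408) in BMP-4 ESCs, 4.20 (0.351 to 8.05) in untreated EpiSCs, 3.64 after 1.5 h and 9.02 (2.6 to 15.5) after 24 h. H19, the maternal non-coding RNA that shares enhancers with Igf2, lay between 0.039 and 0.14 FPKM in the 5 libraries, around the level of 1 to a few reads. Igf2 RNA was therefore low to moderate and highest at 24 h, while its reciprocal partner was close to the limit of detection in both cell types.

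Igf2r, the maternally expressed receptor that takes IGF2 to the lysosome, stood at 7.15 and 6.98 FPKM in ESCs and 10.4, 11.8 and 13.6 in EpiSCs, ranges that did not overlap at a gap of 1.40-fold. Its antisense RNA Airn was listed at 0 in all libraries. Airn and Igf2r are listed with the same span, so this 0 may rest on how reads were divided. Grb10 (mm9 chromosome 11, 11830502 to 11937423), an adaptor that restrains insulin and IGF receptors, stood at 46.3 FPKM (24.2 to 68.5) in serum ESCs and 12.0 (4.65 to 19.4) in BMP-4 ESCs, and at 66.9, 68.5 and 55.8 in EpiSCs. The BMP-4 ESC library is the low one here, so untreated EpiSCs were 5.22-fold above it, with intervals apart, but 1.43-fold above serum ESCs, with intervals that overlap. Of 8 further genes of this axis and YY1, 7 passed the mean, of which the insulin receptor substrate gene Irs2 was higher in every EpiSC library (0.913 and 0.734 against 4.15, 4.33 and 3.85 FPKM) and the RNA-binding gene Igf2bp2 was lower, each 1 of 7 (14.3%) beside 7.21% and 6.62% of all genes. Irs2 passed the mean through EpiSCs only.

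In the Dlk1-Meg3 domain on chromosome 12 the maternal non-coding RNAs were well expressed. Meg3 stood at 15.4 and 18.8 FPKM in ESCs and 22.8, 24.0 and 21.8 in EpiSCs. Rian (mm9 chromosome 12, 110842155 to 110899921), the host of a snoRNA cluster, stood at 34.1 (15.7 to 52.4) and 38.8 (18.6 to 59.1) in ESCs and 69.9 (36.8 to 103), 67.7 and 71.0 in EpiSCs. Mirg, the host of a microRNA cluster, stood at 2.09 and 1.9 in ESCs and 3.27, 4.16 and 4.94 in EpiSCs. For Meg3, Rian and Mirg the EpiSC values did not overlap the ESC values, at gaps of 1.15-, 1.72- and 1.38-fold, all short of 2-fold. The intervals overlapped for all 3, and those of Mirg start at 0. Dlk1, the paternally expressed gene of the domain, stayed between 0.118 and 0.423 FPKM. The 22 rows of small RNAs inside Meg3, Rian and Mirg were listed at 0 in every library.

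Domains with a gene nested in another showed smaller differences. Mcts2, a retrogene within H13, stood at 19.4 and 16.0 FPKM in ESCs and 11.2, 12.8 and 10.8 in EpiSCs, whereas H13, a signal peptide peptidase gene, stood at 6.04 and 4.46 and at 10.0, 9.05 and 10.2. The ESC and EpiSC values did not overlap for either, at gaps of 1.24- and 1.43-fold, short of 2-fold, and all intervals of Mcts2 start at 0. Mcts2 was 322% and 360% of H13 in the ESC libraries and between 106% and 141% of it in EpiSCs. The file merges them into 1 locus, so this ratio rests on how reads were divided.

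Zrsr1, a retrogene within Commd1, stood at 5.5 and 4.13 FPKM in ESCs and 2.96, 2.98 and 3.13 in EpiSCs. Its host Commd1, a gene of copper metabolism, lay between 116 and 120.5 FPKM in all 5 libraries. Both are listed with the same span, so their levels rest on how reads were divided. Trappc9, a gene of vesicle traffic, stood at 8.92 and 10.3 in ESCs and 5.91, 6.78 and 6.53 in EpiSCs. Peg13 within it and the potassium channel gene Kcnk9 beside it were listed at 0. Peg13 is listed with the span of Trappc9, so the same limit holds for its 0. Impact, a regulator of translation, stood at 19.2 and 22.7 in ESCs and 32.3, 31.3 and 32.3 in EpiSCs.

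Altogether 16 genes had a mean under 1 FPKM, with single values between 0 and 1.67. They were H19, Airn, Dlk1, Usp29, Zim1, Magel2, Sgce, Kcnq1ot1, Nnat, Plagl1, Nespas, Rasgrf1, Nap1l5, Peg13, Kcnk9 and Dcn. Airn, Peg13, Kcnk9 and Dcn were listed at 0 in all 5 libraries. Nnat and Nap1l5 overlap the rows of Blcap and Herc3, and Nnat reached 0.34 FPKM and Nap1l5 0.0644.

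Pairwise, untreated EpiSCs against ESCs in LIF and serum gave 10 of 28 higher genes, the 9 above and Rian (35.7% beside 11.6% of all genes), and 2 lower (7.14% beside 9.55%). The median difference was 0.53 on the log2 scale for the 28 genes and -0.01 for all genes. Against BMP-4 ESCs there were 11 higher genes, the same 9 with Grb10 and H13 (39.3% beside 11.0%), and 3 lower, Peg10, Mest and Ppp1r9a (10.7% beside 10.0%). The medians there were 0.50 and 0.0046. Both comparisons share the untreated library. Deposited intervals were apart for Peg3, Snrpn, Cdkn1c and Gnas among higher genes and Peg10 among lower genes against serum ESCs, where 2.68% and 2.84% of all genes met that rule. Against BMP-4 ESCs Grb10 joined the 4 higher genes, to make 5, and Peg10 was again the lower one, beside 2.39% and 3.11% of all genes.

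**Figure D4:**
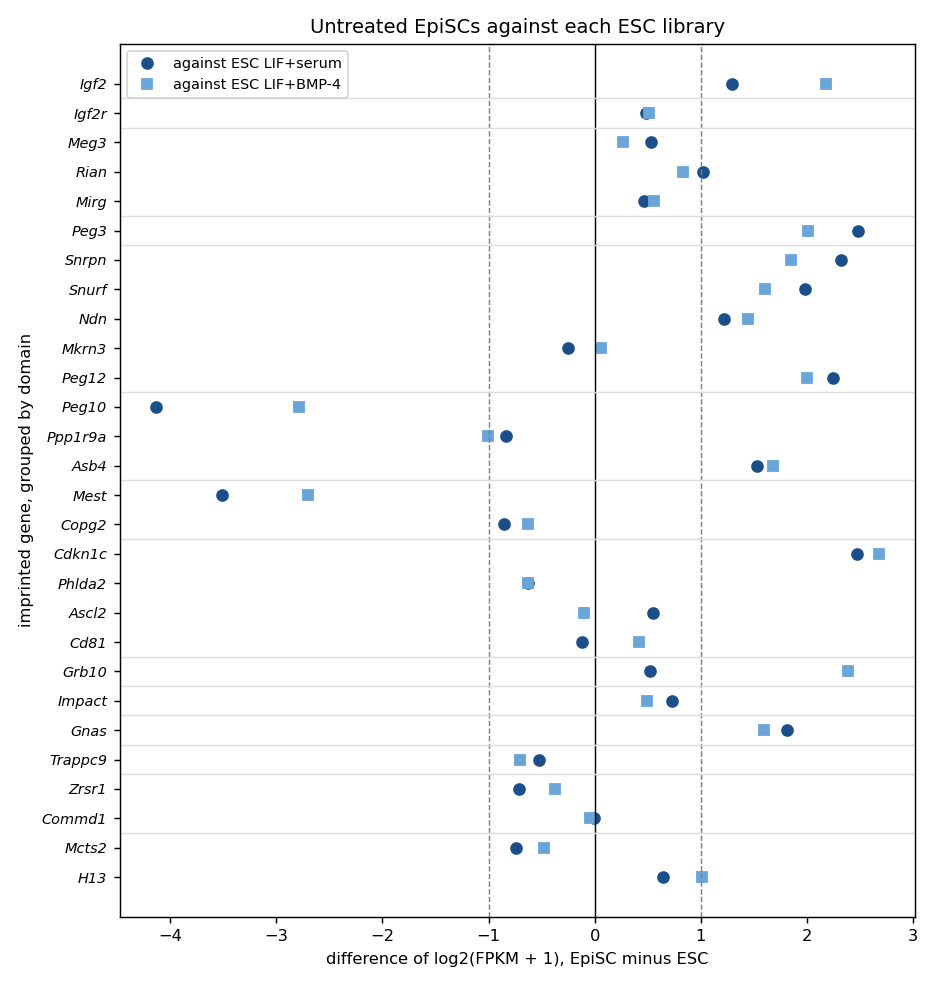
Difference of log2(FPKM + 1) for the 28 genes whose mean reached 1 FPKM, untreated EpiSCs minus ESCs in LIF and serum (circles) or in LIF and BMP-4 (squares); dashed lines mark 2-fold. Peg10 and Mest lie far to the left against both ESC libraries, and Grb10 lies beyond 2-fold against 1 of them only.

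Between the ESC libraries, where serum was replaced by basal medium as BMP-4 was added, 0 of the 28 genes were higher with BMP-4 (2.61% of all genes) and 2 were lower, Grb10 and Peg10 (7.14% beside 1.28%). Grb10 was 3.64-fold lower with intervals apart, and Peg10 2.54-fold lower with overlapping intervals. Mest and Igf2, also paternally expressed, stood 1.75-fold and 1.85-fold below serum ESCs, short of 2-fold. The value of Igf2 depends on the added 1: with 0.1 FPKM added instead, its difference was -2.30 on the log2 scale and past 2-fold. For the Peg3, Snrpn and Dlk1-Meg3 domains the differences stayed within 1.39-fold. Medians were -0.06 for the 28 genes and -0.02 for all genes. The change of medium and BMP-4 cannot be told apart.

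After 1.5 h of BMP-4 in EpiSCs, 0 of the 28 genes were higher and 0 lower, beside 0.236% and 0.182% of all genes. The widest difference, that of Phlda2, was 1.37-fold. Medians were 0.02 for the 28 genes and -0.0048 for all genes.

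After 24 h, Phlda2 (mm9 chromosome 7, 150687453 to 150688429) was the 1 higher gene (3.57% beside 0.654% of all genes), 2.61-fold above untreated EpiSCs, from 21.5 FPKM (2.17 to 40.9) to 57.8 (16.9 to 98.8) with overlapping intervals, and 0 of the 28 were lower (0.527% of all genes). In FPKM + 1, Igf2 and Peg3 were next, 1.93-fold and 1.90-fold above untreated EpiSCs, and Cdkn1c was 1.44-fold above. Peg12 and Snrpn stood below their untreated values, by 1.56-fold and 1.30-fold. Medians were 0.05 for the 28 genes and -0.00092 for all. Against 1.5 h, Igf2 was the 1 higher gene at 2.16-fold (3.57% beside 0.609%), again with overlapping intervals, while Phlda2 stood 1.90-fold above, and 0 genes were lower (0.427% of all genes). The treated libraries share the untreated control, so their directions are not independent.

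**Figure D5:**
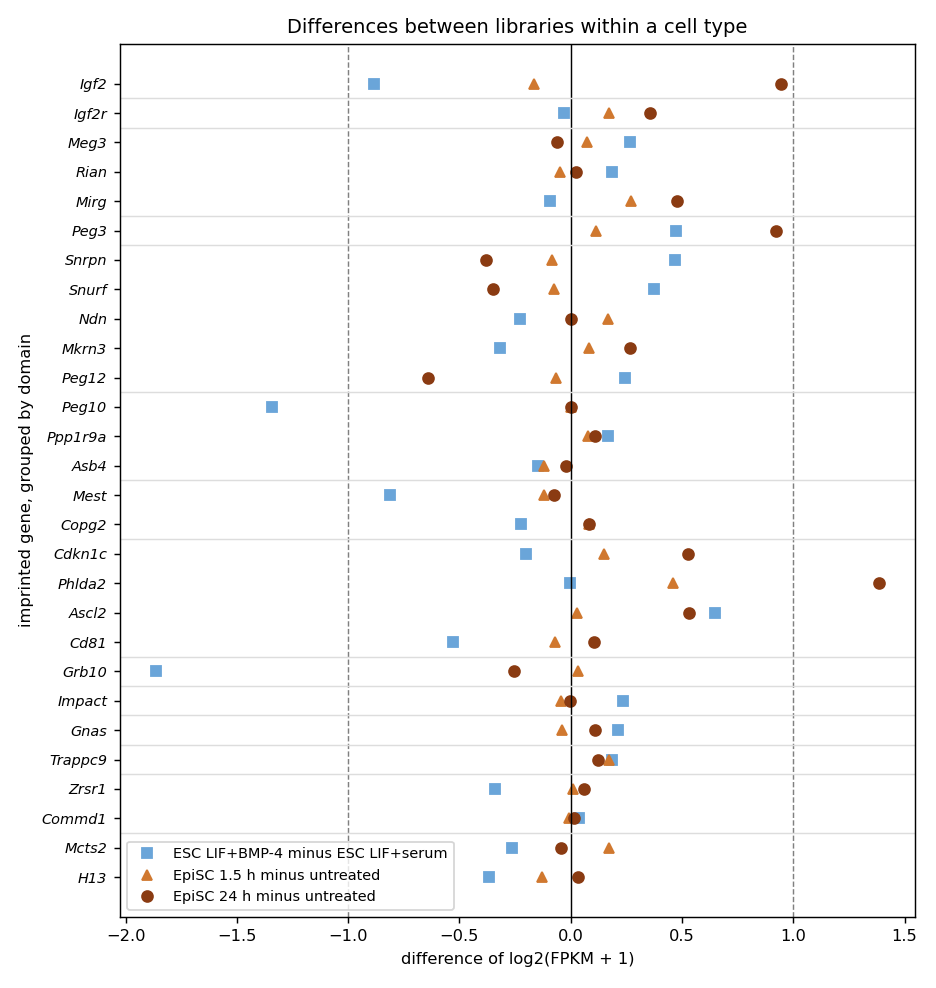
Difference of log2(FPKM + 1) within a cell type for the 28 genes: ESCs in LIF and BMP-4 minus ESCs in LIF and serum (squares), and EpiSCs after 1.5 h (triangles) and 24 h (circles) of BMP-4 minus untreated EpiSCs; dashed lines mark 2-fold. Grb10 and Peg10 pass 2-fold in ESCs, Phlda2 passes it after 24 h, and the 1.5 h triangles stay near 0.

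Markers of other cell types also differed between the libraries. Trophoblast markers summed to 7.57 and 12.1 FPKM in ESCs and 37.1, 31.4 and 57.1 in untreated, 1.5 h and 24 h EpiSCs. Of these 8 markers 4 passed the mean. Eomes, which EpiSCs themselves express, made up 23.9 FPKM of the sum in untreated EpiSCs and 28.7 at 24 h. Cdx2 (1.55 and 13.7 FPKM) was higher and Krt7 (5.25 and 1.00) lower at 24 h than before, and Tfap2c stood at 6.10 and 12.7, while Prl3d1 was listed at 0 throughout and Elf5 reached 0.0361. Visceral endoderm markers summed to 18.9, 10.4 and 5.52 FPKM in the EpiSC libraries and 1.29 and 2.94 in ESCs, with 2 of 8 past the mean (Sox17 and Foxa2), Afp at most at 0.0368 and Ttr at 1.16 at 24 h. Fibroblast markers summed to between 2.97 and 6.68 FPKM, with 1 of 8, Thy1, past the mean and Postn at most at 0.0288. Of the 8 primed markers, 5 (Fgf5, Otx2, Sox3, Lefty1 and Cer1) were lower at 24 h than in untreated EpiSCs, beside 0.527% of all genes. The sum of the 8 was 742 FPKM before and 409 at 24 h. Fgf5, Cer1, Cdx2, Krt7, Sox17 and Foxa2 passed the mean through EpiSCs only. Cer1 stood at 35.0 FPKM before and 1.31 at 24 h. The part of other cells or of this shift in the 24 h values of Phlda2, Ascl2, Igf2, Peg3 or Cdkn1c was not tested.

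Genes that maintain or rewrite imprints were compared in the same way. Of 12 genes of imprint maintenance, all of which passed the mean, 0 were higher and 3 (25.0%) lower in every EpiSC library, beside 7.21% and 6.62% of all genes: Zfp57, Dppa3 and Arid4a. Zfp57, the zinc finger protein that reads the methylated TGCCGC, stood at 199.6 and 251 FPKM in ESCs and 19, 16.9 and 19.3 in EpiSCs. The other 9 were not called in either direction. Of 6 genes of new methylation and its removal, 5 passed the mean, of which Dnmt3b was higher (1 of 5, 20.0%) and Dnmt3l, Tet1 and Tet2 were lower (3 of 5, 60.0%). Dppa3 and Tet2 passed the mean through ESCs only. Methylation at the domains was not measured, and the relation of these genes to the imprinted ones was not tested.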

How the data were processed

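RNA was sequenced from 5 libraries, 1 per group. Per the submitters' processing notes, the authors used TopHat and Cufflinks on the mm9 build, with Picard and SAMtools, and the deposited table gives FPKM per gene with a lower and an upper bound, which Cufflinks defines as a 95% interval. Annotation, scaling between libraries and use of strand: not given in the sources used here. Of 23951 genes, 8 with a status other than OK in a library were left out. Gene starts were written from 1: of 22460 symbols matched to RefSeq, 8129 had the same span when the file's start was read as counted from 0 and 515 when read as counted from 1.

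Differences of log2(FPKM + 1) were computed with Python 3.11.15 and pandas 2.3.3 for genes whose mean reached 1 FPKM, and called at 2-fold. This pseudocount understates the change of low genes. The script was tested on simulated data. The 44 genes and all lists were chosen with earlier results of these data known. All 44 genes are named, list genes (up to 4 a list) and neighbours (up to 8) by size of difference (the markers of other cell types were chosen after their values were seen), and promoters by motif and call, except the Peg3-Usp29 stretch, which was chosen after its values were seen. Depth was taken from the most frequent step among 514 to 600 genes under 0.5 FPKM with 1 GENCODE M21 transcript over 1500 nt, and is approximate. Promoters are from RefSeq (GRCm38.p6). No coordinates were converted between builds.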

Additional observations from a re-analysis of the deposited data

How the results depend on the processing

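The counts of genes at least 2-fold apart among the imprinted genes depended on the filters. With a mean of at least 5 FPKM they were 7 against serum ESCs (12 as reported), 8 against BMP-4 ESCs (14), 1 between the ESC libraries (2), 0 for 24 h against 1.5 h (1) and 6 for all EpiSC against both ESC libraries (11), because fewer genes enter: the last is 6 of 18 (33.3%, beside 11.3% of all genes), against 11 of 28 (39.3%, beside 13.8%). Leaving out imprinted genes that overlap another row gave 6 against serum ESCs, 7 against BMP-4 ESCs and 0 for 24 h against 1.5 h. For all EpiSC against both ESC libraries this left 5 of 15 (33.3%), beside 13.8% of 10992 genes. Only imprinted genes were left out for overlap, so that 13.8% is not a share of genes filtered alike. With intervals apart the counts were 5 against serum ESCs, 6 against BMP-4 ESCs, 1 between ESC libraries, 0 for 24 h against untreated and 0 for 24 h against 1.5 h. A pseudocount of 0.1 FPKM gave 4 between ESC libraries, adding Igf2 and Asb4, and 2 for 24 h against untreated, adding Igf2; it left 11 of 28 for all EpiSC against both ESC libraries, beside 17.4% of all genes. Leaving out genes under 1 FPKM in 1 cell type, chosen after seeing the data, gave 1 between ESC libraries and 7 of 24 (29.2%, beside 8.77%) for all EpiSC against both ESC libraries. Counting Snrpn and Snurf as 1, also chosen after seeing the data, gave 10 of 27 there (37.0%, beside 13.8%). Leaving out each library in turn gave 11 to 12 for all EpiSC against both ESC libraries, the 12 adding Grb10 without the serum ESC library. Under median scaling, Ppp1r9a against BMP-4 ESCs was -0.999 on the log2 scale, just inside 2-fold. No called difference changed sign. No paired analysis was possible because the labels give only 1 library for a group. Wide intervals, with no replicates, limit what values under about 5 FPKM show.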

Other observations

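Other genes reported as imprinted in some tissue were compared too. Of 34 listed, 31 were in the table and 13 reached a mean of 1 FPKM, of which 4 (30.8%) were higher in every EpiSC library than in both ESC libraries and 1 (7.69%) was lower, beside 7.21% and 6.62% of all genes. Calcr, Atp10a, Osbpl5 and Ddc passed the mean through 1 cell type only. Without them 2 of 9 (22.2%) were higher and 0 lower, beside 4.67% and 4.10% of genes filtered alike. Sfmbt2, a paternally expressed Polycomb-related gene of the placenta, stood at 2.28 and 1.53 FPKM in ESCs and 14.0, 13.8 and 14.5 in untreated, 1.5 h and 24 h EpiSCs. Atp10a, a phospholipid flippase gene of the Prader-Willi region, stood at 0.825 and 0.746 in ESCs and 5.27, 5.22 and 5.21 in EpiSCs. Calcr, the calcitonin receptor gene in the Peg10 region, was listed at 0 in both ESC libraries, while EpiSCs gave 6.42, 6.65 and 3.22. Ddc, a decarboxylase gene beside Grb10, was the lower one, at 9.25 and 24.2 FPKM in ESCs and 0.323, 0.481 and 0.435 in EpiSCs. Between the ESC libraries Ddc was higher with BMP-4, where Grb10 was lower.

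Within 500 kb of an imprinted gene of the 44, 97 other genes reached a mean of 1 FPKM. Of these, 7 (7.22%) were higher in every EpiSC library and 11 (11.3%) lower, beside 7.21% and 6.62% of all genes. These shares are not those of unimprinted neighbours. Ddc, Pon2, Blcap, Osbpl5, Tssc4 and Nap1l4 are also in the list of other imprinted genes above. Peg3os lies inside Peg3 and may share its reads. Peg3os and Pon2 are among the higher genes and Ddc is among the lower ones. Near Grb10, the actin nucleator gene Cobl was lower (50.4 and 40.0 FPKM in ESCs and 1.85, 1.66 and 1.73 in EpiSCs), as was Ddc, while Grb10 itself stood at 55.8 to 68.5 in EpiSCs. Beside Igf2r, the RNA exonuclease gene Pnldc1 stood at 8.87 and 11.3 in ESCs and between 0.560 and 0.571 in EpiSCs, and the superoxide dismutase gene Sod2 at 48.9 in both ESC libraries and 14.1, 13.8 and 13 in EpiSCs. Npepl1, a peptidase gene near Gnas, stood at 8.16 and 5.09 in ESCs against 0.199, 0.401 and 0.110 in EpiSCs. Near Peg3, the chloride transporter gene Clcn4-2 stood at 0.596 and 0.828 in ESCs and 4.77, 4.81 and 5.36 in EpiSCs.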
